A study of Caenorhabditis elegans with 11 samples.

Results

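The subject is the group of late-catalogued microRNA (miRNA) hairpins of the nematode Caenorhabditis elegans, those whose number in the name is 1000 or more. They were chosen by name alone: every row called mir- with such a number, with any letter or copy suffix, except mir-1018, mir-4807, mir-2220, mir-2208a, mir-2208b and mir-2209a. That gave 115 of the 250 hairpins in the table, beside 129 with lower numbers or lettered names (let-7, lin-4 and lsy-6) and the 6 left out. Small RNA had been sequenced from total RNA of whole hermaphrodites of N2, the standard laboratory strain, at ages of 1, 5 and 10 days (3 libraries each) and 20 days (2 libraries). All animals share that genotype, no treatment is named, and the sources used here do not say from which stage days run. Each value is the number of reads assigned to a hairpin, with both of its arms in 1 count.

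miRNAs are short RNAs cut from hairpin-shaped precursors; loaded into an Argonaute protein, they lower the output of mRNAs that carry a match to their seed. Names are given roughly in the order in which hairpins were catalogued, so abundant and widely conserved miRNAs tend to carry low numbers, and high numbers tend to go to rare or lineage-restricted hairpins found by deep sequencing. Some of the late ones are mirtrons, short introns that fold into a hairpin once spliced and so bypass the nuclear Drosha cut.

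Total counts per library were between 955506 and 1800586, so that 1 count was worth 0.555 to 1.05 CPM (the count scaled to a column total that is the same for every library). All levels are relative to the other miRNAs of a library, since no spike-in is named in the labels. In whole animals, fewer cells of a type and less RNA per cell cannot be told apart. Markers of embryos and germline (the mir-35 family, 8 hairpins), muscle (mir-1), intestine (mir-60), glia (mir-228) and neurons (mir-124 and lsy-6) all had counts. Their levels were not alike at all ages (values given without a test). The mir-35 family took 17.4% to 21.4% of the counts at 1 day and 27.8% to 30.2% at 20 days. From 1 to 20 days mir-1 went from 453 to 580 down to 140 to 175 CPM, mir-60 from 1506 to 1880 down to 614 to 815 CPM after 2504 to 3123 at 5 days, and the neuronal pair from 32.3 to 37.3 down to 16.6 to 19.5 CPM. mir-228 stood at 72360 to 90830 CPM at 1 day and at 122100 to 157300 at 20 days. The part of these shifts in the changes given here was not tested. Libraries of 1 age differed by more than counting noise in all pairs, and the labels name no separate cultures. The p-values therefore cover the spread among these libraries only, and that spread may be technical.

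Most of the late-catalogued hairpins were at or near the limit of detection. Of the 115, 17 had no count in any library and 43 had 1 to 9 counts over all 11 libraries together, of which 13 had a single count. A further 31 had 10 to 99 counts and 24 had 100 or more. The median total was 7 counts, against 5429 for the 129 other hairpins, of which 55 (42.6%) had 10000 counts or more; no late-catalogued hairpin did. The 17 without a count were mir-1021, mir-1833, mir-4815, mir-4921, mir-4923a, mir-4924, mir-4927, mir-4930, mir-5593-2, mir-5595, mir-8187, mir-8188, mir-8194, mir-8197, mir-8200, mir-8204 and mir-8209. A count of 0 over all libraries allows a level of up to 0.187 CPM (3 counts), a limit that covers counting error only. In 84 of the 115 no library held 10 counts.

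**Figure D1:**
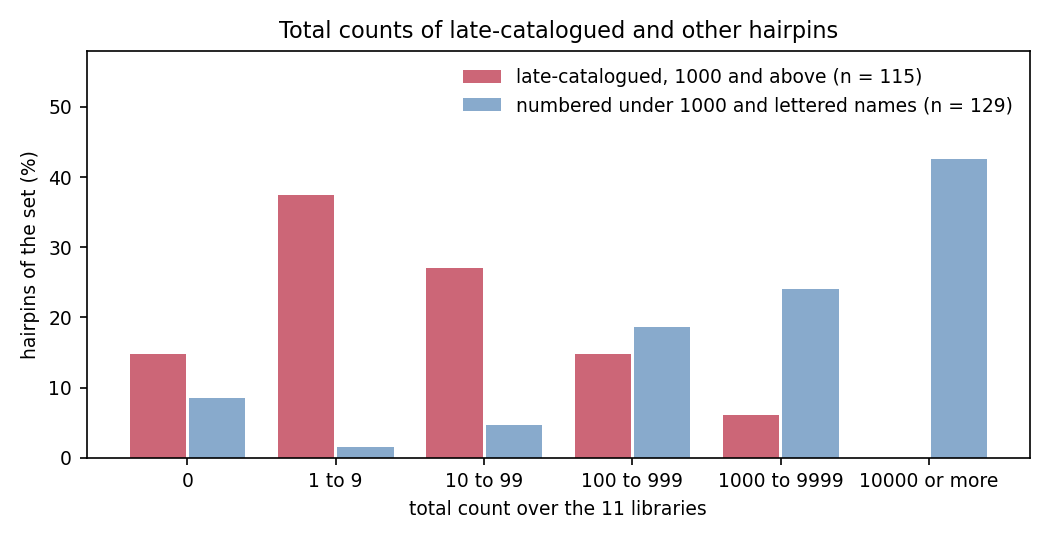
Share of hairpins (y axis, percent of each set) by total count over the 11 libraries (x axis, bins) for the 115 late-catalogued hairpins and the 129 with lower numbers or lettered names. Of the late-catalogued set, 14.8% had no count and 37.4% had 1 to 9, while 42.6% of the other set had 10000 or more.

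The boundary of the number rule did not part rare from abundant hairpins sharply. Just below it, mir-800 and mir-799 had mean levels of 10.7 and 4.58 CPM after scaling by TMM (a method that corrects library sizes for a few dominant RNAs). The 2 lowest-numbered members, mir-1019 and mir-1020, both mirtrons, had 0.0485 and 12.4 CPM, and mir-1019 had 1 count in all. The most abundant member, mir-1829b, ranked 66 among the 250 hairpins by total count. Reads of small RNA libraries span whole mature products, so these counts were not divided by length.

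The number of late-catalogued hairpins with at least 1 count was close to 60 in every library. It was 60, 65 and 63 in replicates 1, 2 and 3 at 1 day, 61, 52 and 61 at 5 days, followed by 52, 59 and 61 at 10 days and by 59 and 52 at 20 days. The 3 libraries with 52 were the shallowest 3 of the 11. At the depth of the shallowest library the expected numbers lay between 49.05 and 57.2, from 51.6 to 57.2 for the youngest animals and from 52.0 to 52.9 for the oldest, so that these ages overlapped. In all, 98 of the 115 had a count somewhere and 30 had one in all 11 libraries.

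Together the 115 hairpins held 21183 of 16037451 counts, and their share was larger at 1 day than later. The summed share of the column total was 0.179%, 0.172% and 0.150% in the libraries of 1 day (replicates 1, 2 and 3). It was 0.120%, 0.124% and 0.117% at 5 days, followed by 0.115%, 0.119% and 0.112% at 10 days and by 0.109% and 0.140% at 20 days. The mean was 0.167% ± 0.0149 (SD, n = 3) at 1 day against 0.120% ± 0.00371 at 5 days (n = 3). By column totals the 3 libraries of 1 day lay above all the others. With TMM-scaled totals the mean was 0.152% ± 0.00772 at 1 day (n = 3) and 0.130% ± 0.0214 at 20 days (n = 2). Ranges of 1 SD around these means overlapped. The exact 95% binomial interval of a single library, which covers counting error only, was at its widest 0.132% to 0.147%, in replicate 2 at 20 days. No test was made of this sum. In the pair of libraries whose descriptions end in L number 3 the share was 0.150% at 1 day and 0.120% at 5 days, and in that with L number 1 it was 0.179% at 1 day and 0.140% at 20 days.

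The difference in share between 1 and 5 days was carried by a few hairpins. mir-4813 made up 28.9% of it, mir-1829b 22.9% and mir-1830 16.6%. Without those 3, which were picked after their values were seen, the share was 0.0990% ± 0.00922 (SD, n = 3) at 1 day and 0.0841% ± 0.00172 at 5 days. The 88 rarest hairpins, too low to be tested one by one, held 0.00511% ± 0.00106 (SD) at 1 day, 0.00535% ± 0.000751 at 5 days, 0.00502% ± 0.000905 at 10 days (n = 3 each) and 0.00560% ± 0.000223 at 20 days (n = 2), differences smaller than the spread between libraries. The high share of replicate 2 at 20 days came with 1 hairpin: without mir-1820 both libraries of that age held less, with a mean of 0.0982% ± 0.00674 (SD, n = 2) against 0.154% ± 0.00993 at 1 day (n = 3).

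**Figure D2:**
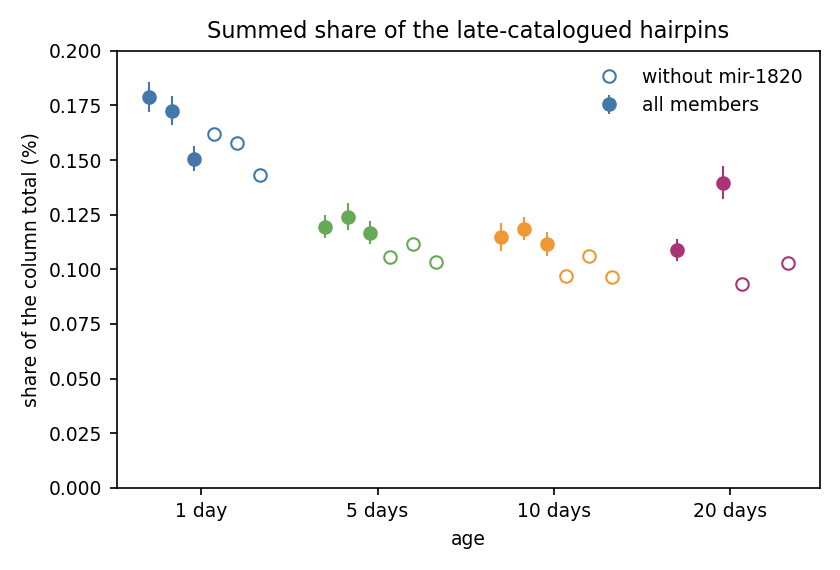
Summed share of counts (y axis, percent of the column total) of the 115 late-catalogued hairpins by age, 1 point per library with its exact 95% binomial interval (filled), and the same without mir-1820 (open). The 3 libraries of 1 day, at 0.150% to 0.179%, lie above all others, and replicate 2 at 20 days (0.140%) drops toward its partner once mir-1820 is left out.

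The 6 hairpins that the rule leaves out held a larger share late, at 0.00997% to 0.0116% of the counts at 1 day and 0.0668% to 0.0705% at 20 days. Of these, mir-1018, placed between protein-coding genes inside the noncoding RNA Y59E1B.1, had 20.0 ± 4.65 CPM at 1 day (SD, n = 3) and 210 ± 22.6 at 20 days (n = 2).

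A minimum count filter (edgeR's filterByExpr by age) kept 27 of the 115 late-catalogued hairpins for testing, against 112 of the 129 others and all 6 left out by the rule. The 27 held 96.0% of the group's counts. The highest totals among those not kept were 56 counts for mir-8193, 51 for mir-4812 and 50 for mir-4929, and the lowest among those kept were 87 for mir-1821, 89 for mir-5552 and 91 for mir-5594. A rare hairpin passes such a filter more easily if 1 age raises it, so counts over the 27 describe those 27. One hairpin outside them, mir-2221, picked after its values were seen, had no count in the 3 libraries of 1 day and 5, 8 and 5 counts at 5 days, and the exact 95% counting interval of the ratio started at 4.55.

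Among the 4 ages, 18 of the 27 differed in edgeR's quasi-likelihood test (Benjamini-Hochberg adjusted p under 0.05), where over all 145 tested hairpins 80% did. From 1 to 5 days 4 were higher (background 21.4%) and 9 lower (background 26.2%). From 5 to 10 days 2 were higher (background 29%) and 1 lower (background 8.28%). That step followed the scaling: RLE size factors gave 2 higher and 4 lower, upper-quartile factors 4 and 1, and total counts 2 and 3. Over all 145 hairpins 54 passed in that step, against 54 with RLE factors, 74 with upper-quartile factors and 54 with total counts. From 10 to 20 days 2 were higher (background 20%) and 7 lower (background 24.8%), or 4 and 5 with RLE factors and 0 and 8 with upper-quartile factors. The balance of that step also turned on single libraries. It was 5 higher and 4 lower without replicate 2 at 1 day. Without replicates 1, 2 and 3 at 10 days it was 4 and 3, 0 and 6, and 2 and 4. Leaving out a library of 20 days leaves 1 at that age, so only the median log2 change of the tested members is given. That median was 0.19 without replicate 1 (29 tested) and -0.25 without replicate 2 (31 tested), against -0.11 for the 27. Without a filter the balance was 5 and 4 (98 members tested), and with DESeq2 4 and 4. Over all 145 hairpins 65 passed in that step, 72 with RLE factors, 70 with upper-quartile factors and 69 with DESeq2. Without a filter 76 of 222 did. Without replicate 2 at 1 day 80 of 146 did, and without replicates 1, 2 and 3 at 10 days 78 of 146, 61 of 145 and 59 of 145. From 1 to 20 days 5 were higher (background 33.1%) and 8 lower (background 29.7%), or 4 and 11 with total counts. Without a filter the balance was 9 and 9, over 98 tested members. Over all hairpins 91 of 145 passed from 1 to 20 days, 100 of 145 with total counts and 97 of 222 without a filter. The median log2 change of the 27 was -0.31 from 1 to 5 days and -0.29 from 1 to 20 days. The medians of all tested hairpins were 0.00 and -0.03. Without a filter the medians were 0.00 and -0.22 for the 98 members, against 0.01 and 0.00 over all. From 1 to 20 days the members' median was -0.04 without replicate 1 at 20 days and -0.30 without replicate 2. Over all hairpins it was then 0.11 and 0.03. Descriptions of libraries end in a number after L, which the labels leave unexplained and which 1 pair of libraries shares in each comparison. A fit with that L number as a fixed term has nearly as many terms as libraries. A library that is alone in its L number adds nothing on age there. A call lost in that fit, here or for a hairpin below, therefore cannot be told apart from a loss of precision. In that fit 14 of the 27 differed among the 4 ages, where 110 of all 145 did. Then 3 were higher and 7 lower from 1 to 5 days (65 of all 145 passed), and 3 and 0 from 5 to 10 days (62). From 10 to 20 days it was 0 and 5 (61), and from 1 to 20 days 5 and 8 (91). The median log2 change of the 27 in that fit was -0.14 from 1 to 5 days, against -0.05 over all hairpins. From 1 to 20 days it was -0.05 against 0.05.

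**Figure D3:**
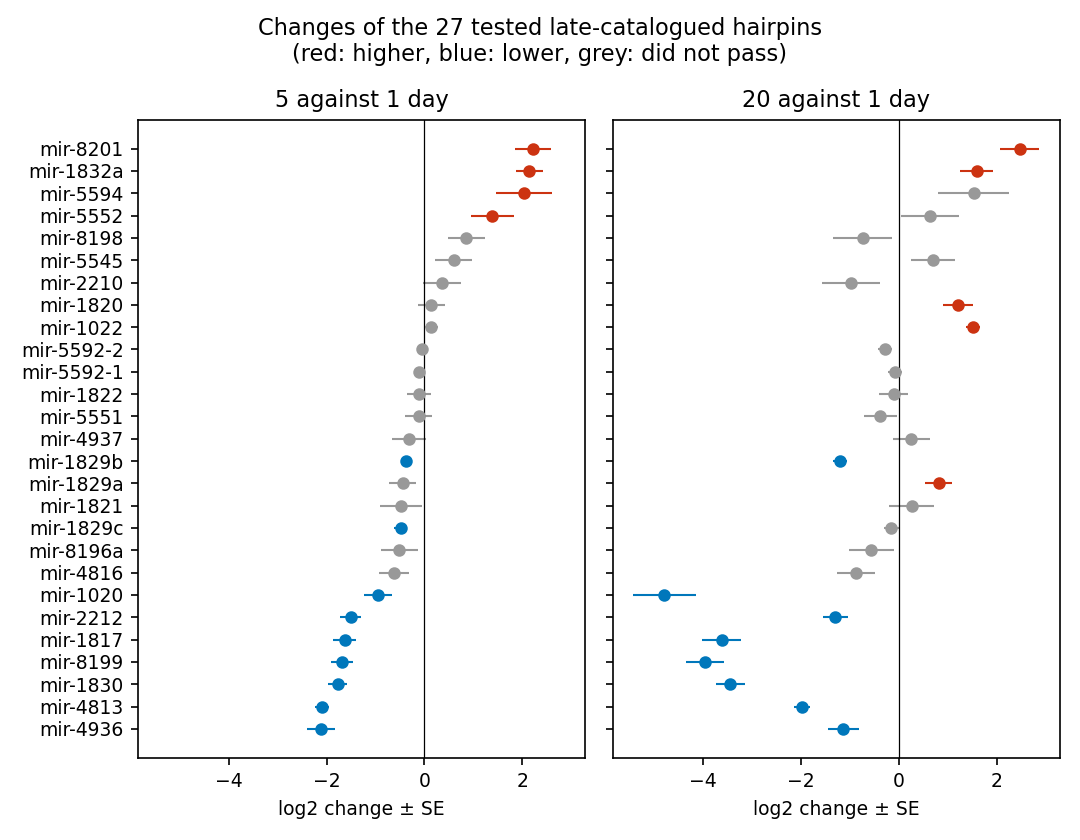
Log2 change ± SE (x axis) of the 27 tested late-catalogued hairpins (rows) from 1 to 5 days and from 1 to 20 days, with hairpins that passed as higher in red, as lower in blue and the others in grey. The hairpins in the plot's lowest rows, mir-4936 to mir-1020, passed as lower in both comparisons, as did mir-1829b further up. Over all tested hairpins 26.2% passed as lower from 1 to 5 days and 29.7% from 1 to 20 days.

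The steepest early falls were those of hairpins that were at their highest at 1 day. mir-4813, which lies in the 3' untranslated region of idhg-1, a gene for a subunit of isocitrate dehydrogenase (chromosome III, 4571640 to 4571716, plus strand, WBcel235), stood at 167, 157 and 152 CPM in the 1-day libraries. It stood at 40.2, 38.5 and 33.1 CPM at 5 days, followed by 26.5, 34.4 and 37.1 at 10 days and by 39.6 and 40.2 at 20 days. Every 1-day library lay far above every later one, and the 3 later ages lay close together. The fall to 5 days was 4.27-fold (log2 change -2.09 ± 0.14 (SE), adjusted p = 2.69e-09) and that to 20 days 3.98-fold (adjusted p = 5.75e-09). The step from 10 to 20 days (0.26 ± 0.19) passed as higher without replicate 2 at 1 day (0.50).

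mir-1830, in an intron of the purine synthesis gene paic-1 (II, 4371838 to 4371907, minus strand), had a lower mean at each age. Its levels were 125, 89.9 and 79.4 CPM at 1 day, 26.8, 36.9 and 23.7 at 5 days, followed by 21.0, 16.2 and 22.3 at 10 days and by 8.31 and 9.77 at 20 days. No library of 10 days reached any of 5 days, and those of 20 days lay below both. It fell 3.41-fold by 5 days (log2 change -1.77 ± 0.20 (SE), adjusted p = 8.69e-07) and 10.9-fold by 20 days (adjusted p = 9.28e-09). The step from 5 to 10 days did not pass (-0.54 ± 0.25), but did as lower with RLE factors (-0.73), total counts (-0.74), no filter (-0.72), DESeq2 (-0.74) and the fit to the 2 ages (-0.75), and without any 1 of 4 libraries. That from 10 to 20 days (-1.14 ± 0.37, adjusted p = 0.0175) was lost without replicate 1 (-0.88) or 3 (-1.02) at 10 days or either library of 20 days (-0.71 and -1.02).

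Both mir-1020 and mir-8199 ended near the limit of detection. mir-1020, the mirtron, fills an intron of T16G12.1 from end to end (III, 10047746 to 10047815, minus strand). It had 29.7, 22.3 and 22.4 CPM at 1 day, 10.3, 17.3 and 11.6 at 5 days, and 7.74, 9.08 and 3.71 at 10 days. At 20 days 1 library had no count, which allows up to 1.82 CPM, and the other had 2 counts (2.17 CPM). The summed counts were 127 at 1 day and 2 at 20 days, a ratio of 35.2 per count sequenced with an exact 95% counting interval of 9.53 to 293 (adjusted p = 1.87e-06 by edgeR). The fitted log2 change of -4.79 was -3.33 without replicate 1 at 20 days, and -8.27 without replicate 2, where the lone library at 0 leaves it to the prior count. Its fall to 5 days (log2 change -0.95 ± 0.28 (SE), adjusted p = 0.00912) was lost without replicate 3 at 5 days (-0.87) or with the L number as a fixed term (-1.02). Against 10 days, with 26 counts, the ratio was 8.12 (2.03 to 70.6); the call (adjusted p = 0.00706) was lost without replicate 1 of the 20-day group (fitted log2 change -1.35 against -2.96). The step from 5 to 10 days (-0.89 ± 0.39) did not pass, but did in several alternatives, among them RLE factors (-1.08) and DESeq2 (-1.10).

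mir-8199 (II, minus strand), whose annotated span of 778 bases is far longer than any other member's, had 45.5, 37.6 and 34.7 CPM at 1 day and 14.6, 10.2 and 11.0 at 5 days. It had 18.8, 13.6 and 9.66 CPM at 10 days, and 1.92 and 3.26 CPM (3 counts in each library) at 20 days. The ages of 5 and 10 days overlapped, and the others did not. It fell 3.23-fold by 5 days (adjusted p = 5.07e-06) and 15.6-fold by 20 days (log2 change -3.97 ± 0.39 (SE), adjusted p = 5.69e-08). Its second fall, from 10 to 20 days (-2.44 ± 0.49, adjusted p = 0.000352), was lost without replicate 1 at 20 days (-1.75).

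mir-1817, between genes on chromosome I, had 25.9, 27.6 and 24.0 CPM at 1 day and 9.13, 8.64 and 7.17 at 5 days. It had 6.64, 6.48 and 2.97 CPM at 10 days and 1.92 and 2.17 at 20 days, where the 2 libraries held 3 and 2 counts. The libraries of each age lay below all those of the age before. It fell 3.10-fold by 5 days (adjusted p = 1.45e-05) and 12.3-fold by 20 days (log2 change -3.63 ± 0.41 (SE), adjusted p = 2.53e-07), while neither step between (-0.64 ± 0.35 and -1.35 ± 0.58) passed. The last step did pass as lower with upper-quartile factors (-1.51) and without replicate 3 at 10 days (-1.66).

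mir-2212 and mir-4936 fell early, and neither passed as changed from 5 to 10 or from 10 to 20 days. mir-2212 (X, 16207829 to 16207888, plus strand), 66 bases upstream of the near-silent mir-1819 (20 counts in all), had 45.5, 48.2 and 37.9 CPM at 1 day, 15.2, 11.8 and 18.2 at 5 days, and 13.3, 14.9 and 13.4 at 10 days. At 20 days the libraries parted, at 12.8 and 25.0 CPM. The fall to 5 days was 2.84-fold (adjusted p = 1.25e-05). That to 20 days (log2 change -1.31 ± 0.26 (SE), adjusted p = 0.000193) was lost without replicate 1 of that age (-0.67), when the step from 10 to 20 days passed as higher (1.12).

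mir-4936 (III, 3249151 to 3249260, plus strand, between genes) had 36.7, 29.4 and 23.5 CPM at 1 day and 4.26, 8.64 and 7.73 at 5 days. It then had 5.53, 8.43 and 11.9 CPM at 10 days and 10.9 and 17.4 at 20 days, so that every later library lay below the 1-day ones. It fell 4.33-fold by 5 days (log2 change -2.11 ± 0.29 (SE), adjusted p = 8.76e-06). At 20 days it was lower by 1.14 on the log2 scale (-1.14 ± 0.31, adjusted p = 0.00351), a call lost without replicate 1 at 20 days (-0.63).

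**Figure D4:**
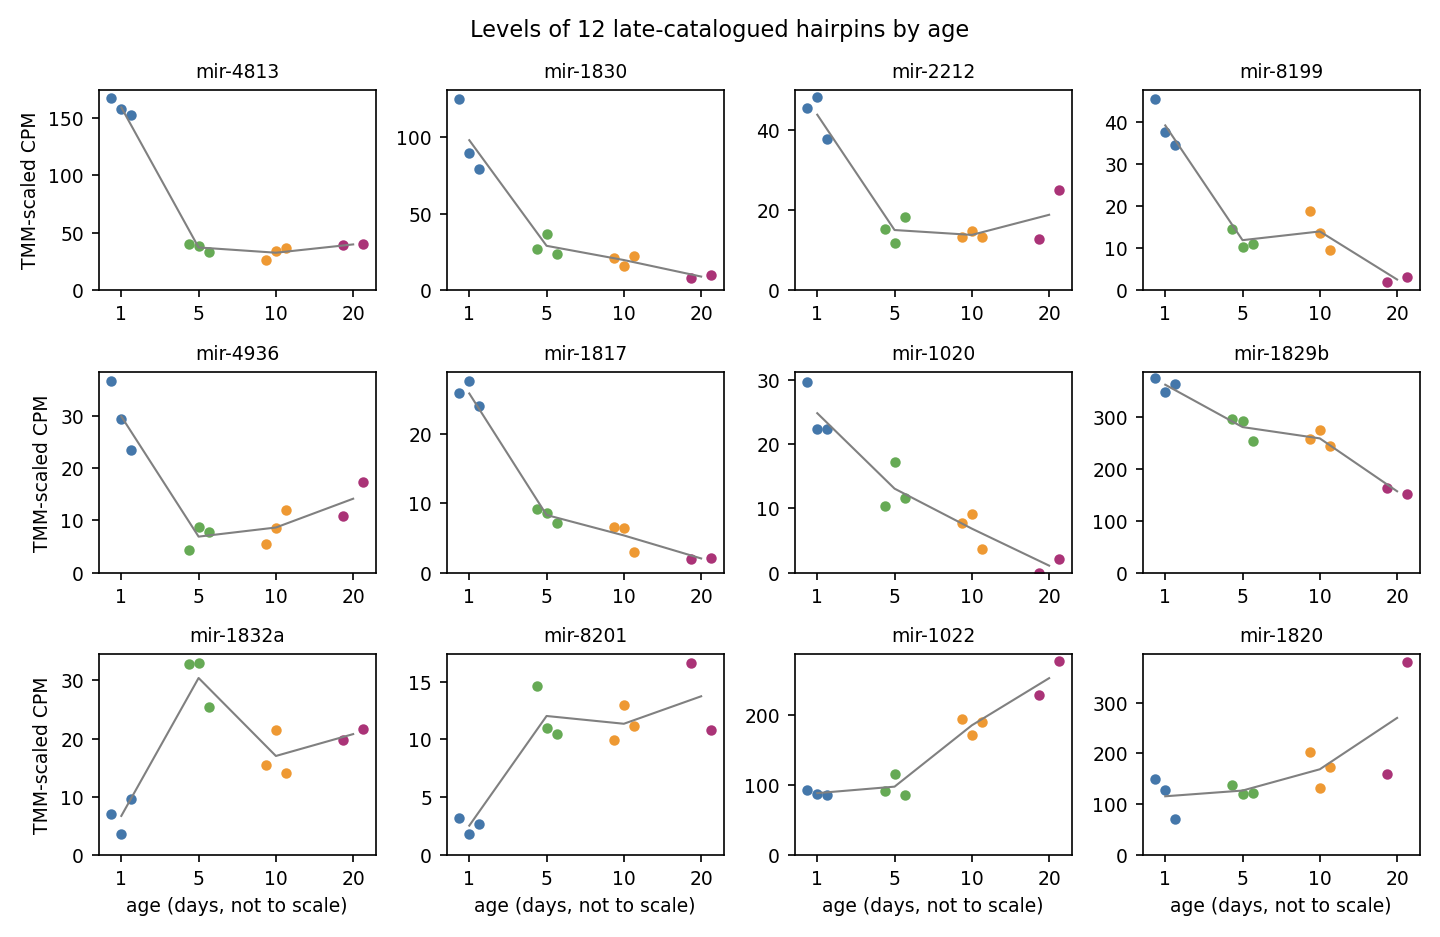
TMM-scaled CPM (y axis, from 0) of 12 late-catalogued hairpins by age (x axis, not to scale), 1 point per library, with a grey line through the age means. mir-4813 stands at 152 to 167 CPM at 1 day and at 26.5 to 40.2 CPM later, while mir-1832a and mir-8201 rise by 5 days and mir-1022 rises after it.

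The 3 mir-1829 hairpins, lettered relatives that share a name because their mature sequences are closely related, lie in introns of 3 genes on chromosome X. mir-1829b is in F20D1.3 (14977119 to 14977178, plus strand), mir-1829c in piki-1, a phosphoinositide 3-kinase gene (15236362 to 15236423, minus strand), and mir-1829a in gas-1, a subunit of mitochondrial complex I (15588311 to 15588370, minus strand). The sources used here do not say how reads that match several hairpins were counted, so the level of each is uncertain.

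mir-1829b, the most abundant member, had 375, 348 and 364 CPM at 1 day, 297, 292 and 253 at 5 days, followed by 258, 276 and 244 at 10 days and by 163 and 151 at 20 days. The ages of 5 and 10 days overlapped, with 1 day above and 20 days below them. It fell 2.304-fold from 1 to 20 days (log2 change -1.20 ± 0.14 (SE), adjusted p = 4.18e-07) and by 0.72 from 10 to 20 days (adjusted p = 0.000308). The smaller fall to 5 days (-0.37 ± 0.12, adjusted p = 0.0129) was lost with the L number as a fixed term (-0.40). The step from 5 to 10 days (-0.11 ± 0.12) passed as lower with RLE factors (-0.30), total counts (-0.31) and DESeq2 (-0.30).

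mir-1829c did not follow it at 20 days. It had 103, 87.0 and 93.3 CPM at 1 day, 62.1, 71.5 and 69.0 at 5 days, followed by 73.0, 55.1 and 69.1 at 10 days and by 82.5 and 87.9 at 20 days. It fell to 5 days by 0.49 on the log2 scale (-0.49 ± 0.14, adjusted p = 0.00654), and at 20 days its change from 1 day was -0.15 ± 0.15, which passed, as lower, with total counts (-0.35). Against 10 days its change was 0.38 ± 0.16 (SE, adjusted p = 0.0629); it passed as higher with RLE factors, total counts, no filter, a minimum of 10 CPM, DESeq2, copies summed and the fit to the 2 ages, and without any 1 of 7 libraries.

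mir-1829a, the rarest of the trio, had 12.01, 16.5 and 15.5 CPM at 1 day, 9.74, 9.42 and 12.7 at 5 days, followed by 19.9, 8.43 and 15.6 at 10 days and by 24.3 and 28.2 at 20 days. Both 20-day libraries lay above all the others. It rose by 0.81 from 1 to 20 days (0.81 ± 0.28 (SE), adjusted p = 0.0170), which was lost with total counts (0.61) and without replicate 1 at 1 day (0.69) or replicate 2 at 20 days (0.77). From 10 to 20 days it rose by 0.90 (adjusted p = 0.0196), which was lost with upper-quartile factors (0.73), the L number as a fixed term (0.77) or without replicate 2 at 10 days (0.57).

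Within a library the shares of the trio do not depend on scaling. mir-1829b took 76.5% to 77.1% of the trio's counts at 1 day, 75.6% to 80.5% at 5 days and 73.5% to 81.3% at 10 days, but 60.4% and 56.5% at 20 days. mir-1829a took 2.45% to 3.65% at 1 day and 9.01% and 10.6% at 20 days. The trio's counts per library were 246 to 887, and the difference between the hairpins was not tested.

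**Figure D5:**
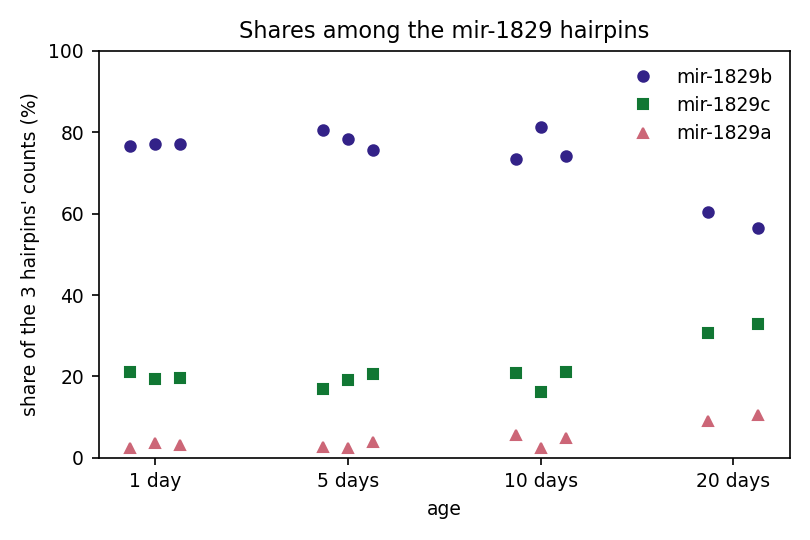
Share of the summed counts of mir-1829a, mir-1829b and mir-1829c (y axis, percent) taken by each in every library, by age. mir-1829b holds 73.5% to 81.3% in the 9 libraries of 1 to 10 days and 56.5% and 60.4% at 20 days, where mir-1829a and mir-1829c take more.

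Of the 4 hairpins that rose from 1 to 5 days, mir-1832a and mir-8201 also passed as higher at 20 days than at 1 day. mir-1832a, in an intron of the splicing factor gene rsp-8 (III, 11829248 to 11829311, plus strand), had 6.95, 3.53 and 9.60 CPM at 1 day and 32.9, 33.0 and 25.4 at 5 days. It then had 15.5, 21.4 and 14.1 CPM at 10 days and 19.8 and 21.7 at 20 days, so that it was highest at 5 days. It rose 4.41-fold by 5 days (log2 change 2.14 ± 0.28 (SE), adjusted p = 4.14e-06) and was 3.01-fold above 1 day at 20 days (adjusted p = 0.000449). The fall from 5 to 10 days (-0.80 ± 0.25, adjusted p = 0.0155) was lost without replicate 3 at 10 days (-0.66) or with the L number as a fixed term (-0.69).

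mir-8201, in an intron of the linker histone gene hil-2 (IV, 6294579 to 6294635, plus strand), had 3.16, 1.76 and 2.67 CPM at 1 day, or 13 counts in 3 libraries. It had 14.6, 11.0 and 10.5 CPM at 5 days, followed by 9.95, 12.97 and 11.1 at 10 days and by 16.6 and 10.9 at 20 days. All 8 later libraries lay above those of 1 day and overlapped with each other. The rise was 4.66-fold to 5 days (log2 change 2.22 ± 0.37 (SE), adjusted p = 5.37e-05) and 5.54-fold to 20 days (adjusted p = 2.33e-05).

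The remaining early rises were of rarer hairpins. mir-5594, in an intron of K12D12.4 (II, minus strand), had 0, 4 and 5 counts at 1 day (0, 2.35 and 2.67 CPM), and 8.52, 10.2 and 4.42 CPM at 5 days. It had 9.95, 8.43 and 8.92 CPM at 10 days and 6.39 and 3.26 at 20 days. It rose to 5 days (log2 change 2.04 ± 0.57 (SE), adjusted p = 0.00544), which was lost with the L number as a fixed term (1.85). The change from 1 to 20 days (1.53 ± 0.73) did not pass, though both 20-day libraries lay above those of 1 day. It did pass as higher without a filter (1.57) and with limma-voom (2.05).

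mir-5552, in an intron of the splicing factor gene prp-6 (V, plus strand), had 3.79, 1.76 and 3.73 CPM at 1 day, 9.74, 7.07 and 7.73 at 5 days, followed by 4.42, 8.43 and 3.71 at 10 days and by 3.20 and 7.60 at 20 days. The ages of 1 and 5 days did not overlap, and the later ones lay between them or within them. Its rise to 5 days (log2 change 1.39 ± 0.44 (SE), adjusted p = 0.0131) was lost with the L number as a fixed term (1.47). It was also lost without replicate 2 at 1 day (1.15) or replicate 1 at 5 days (1.23). The edgeR call among the 4 ages (adjusted p = 0.0486) was lost in several alternatives. Among them were upper-quartile factors, total counts, DESeq2, the L number as a fixed term, and the fits without any 1 library of 1 or 5 days.

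mir-1022 and mir-1820, which were among the 5 most abundant members, were both higher at 20 days than at 1 day. mir-1022, between genes on chromosome X (6435425 to 6435512, minus strand), had 92.3, 87.0 and 85.3 CPM at 1 day and 91.9, 115 and 85.0 at 5 days, which overlapped. It had 195, 171 and 189 CPM at 10 days and 228 and 277 at 20 days, each age above all earlier libraries. It rose 1.91-fold from 5 to 10 days (log2 change 0.93 ± 0.14 (SE), adjusted p = 5.22e-05) and 2.85-fold from 1 to 20 days (adjusted p = 6.38e-08). Its last step (0.44 ± 0.15, adjusted p = 0.0189) was lost with upper-quartile factors (0.26), the L number as a fixed term (0.27) or without replicate 2 at 10 days (0.39).

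mir-1820 (IV, 7767461 to 7767567, plus strand, between genes) was the member whose libraries of 1 age differed most in absolute level. It had 149, 128 and 69.8 CPM at 1 day, 138, 121 and 121 at 5 days, followed by 202, 131 and 173 at 10 days and by 160 and 380 at 20 days. Replicate 2 at 20 days was the highest of all libraries and the shallowest, while replicate 1 lay within the range of 10 days. The rise from 1 to 20 days (log2 change 1.21 ± 0.30 (SE), adjusted p = 0.00158) was lost without replicate 2 at 20 days (0.53) and was 1.86 without replicate 1. Its step from 10 to 20 days (0.66 ± 0.30) did not pass, but did in several alternatives, among them RLE factors (0.81), DESeq2 (0.82) and the fit without replicate 1 at 20 days (1.48). With the L number as a fixed term mir-1820 passed as higher from 1 to 5 days (0.91 against 0.14) and from 5 to 10 days (0.67 against 0.40), and its step from 10 to 20 days was -0.17.

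mir-4937 (IV, 1381705 to 1381814, minus strand, between genes) was highest at 10 days. It had 5.06, 8.82 and 7.998 CPM at 1 day, 7.30, 4.71 and 5.52 at 5 days, followed by 19.9, 14.9 and 15.6 at 10 days and by 10.2 and 6.51 at 20 days. The 10-day libraries lay above all others. It rose 2.75-fold from 5 to 10 days (log2 change 1.46 ± 0.31 (SE), adjusted p = 0.00128). The fall to 20 days (-0.90 ± 0.34, adjusted p = 0.0382) was lost in several alternatives, among them RLE factors (-0.75), DESeq2 (-0.78) and those without either library of 20 days (-1.04 and -0.47).

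mir-2210, in the 3' untranslated region of ZK593.2 (IV, 10914618 to 10914678, plus strand), had 3.16, 5.88 and 7.46 CPM at 1 day and 7.91, 8.64 and 5.52 at 5 days. It had 6.64, 9.08 and 8.17 CPM at 10 days and 3.83 and 1.09 at 20 days, the last from 1 count. Its fall from 10 to 20 days (-1.51 ± 0.56, adjusted p = 0.0325) was -2.54 without replicate 1 of the 20-day group, and was lost without replicate 2 (-0.87), without a filter (-1.33) and with DESeq2 (-1.41). It was also lost in the fit to the 2 ages (-1.47), with the L number as a fixed term (-1.19), and without replicate 2 at 1 day (-1.29) or any 1 of the 10-day libraries (-1.38 to -1.51).

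The mir-5592 pair was next in abundance, beside mir-1022, to mir-1829b and mir-1820. mir-5592-1 (X, 13759245 to 13759308, minus strand) and mir-5592-2 (13759247 to 13759310, plus strand) are the same stretch read on opposite strands, in an intron of aakb-1, a gene for the beta subunit of the energy sensor AMPK. Their counts stood in ratios of 0.837 to 1.18, and reads of 1 may have been counted for the other. mir-5592-1 had 119, 144 and 142 CPM at 1 day, 130, 130 and 119 at 5 days, followed by 132, 148 and 134 at 10 days and by 129 and 125 at 20 days. mir-5592-2 had 135, 133 and 151, then 141, 130 and 135, then 149, 142 and 160, and at 20 days 109 and 120 CPM. For mir-5592-1 the libraries of 1 day spanned nearly all the others, and its change from 1 to 20 days was -0.09 ± 0.14 (SE). mir-5592-2 fell by 0.39 from 10 to 20 days (-0.39 ± 0.14, adjusted p = 0.0265), a call lost in several alternatives, among them RLE factors (-0.25), DESeq2 (-0.25), no filter (-0.21) and those without either library of 20 days (-0.03 and -0.25). Its change from 1 to 20 days (-0.29 ± 0.14) passed as lower with upper-quartile factors (-0.40), with total counts (-0.49) and without replicate 2 at 5 days (-0.30). With both copies summed the change from 1 to 20 days was -0.22 ± 0.12 (SE, adjusted p = 0.122).

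The other 7 tested hairpins passed in no comparison of 2 ages. mir-1822, in an intron of ZK84.2, was the steadiest by p, with ages between 14.7 ± 0.741 CPM (10 days, SD, n = 3) and 16.4 ± 2.77 CPM (1 day, n = 3). mir-5551 lay between 12.5 and 14.9 CPM, mir-1821 between 4.09 and 6.11 and mir-5545, in an intron of the chaperone gene dnj-27, between 4.53 and 7.56 (age means). mir-8196a, which overlaps the long noncoding RNA linc-154, had 9.72 ± 0.969 CPM at 1 day (n = 3) and 7.34 ± 4.96 at 20 days (n = 2), and passed among the 4 ages without either library of 20 days. mir-4816, which fills its intron of T09B4.2, had 18.1 ± 1.21 CPM at 1 day (n = 3) and 10.6 ± 5.01 at 20 days (n = 2). Its log2 change of -0.88 ± 0.38 (SE, adjusted p = 0.0517) passed as lower in several alternatives, among them upper-quartile factors (-0.98), total counts (-1.08) and the fit without replicate 2 at 20 days (-1.30).

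mir-8198 (IV, minus strand) differed among the 4 ages (adjusted p = 0.0433), from 9.72 ± 4.34 CPM at 5 days (n = 3) to 3.00 ± 1.18 at 20 days (n = 2), but no comparison of 2 ages passed. From 1 to 5 days (0.86 ± 0.38) it did pass as higher with RLE factors (0.93) and without replicate 2 at 5 days (1.05). The call among the 4 ages was lost with DESeq2, with the L number as a fixed term, and without any 1 of 8 libraries. The hairpin overlaps 3 piRNA genes (21ur-5102, 21ur-5348 and 21ur-6991) on its own strand, so its reads cannot be told apart from those by position. piRNAs are small RNAs of the germline.

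By position, the late-catalogued hairpins were more often inside protein-coding genes than the others. Of the 111 with a single annotated place, 39 (35.1%) lay within introns of protein-coding genes on the same strand, against 24 of 128 (18.8%) of those with lower numbers or lettered names. Between protein-coding genes lay 54 (48.6%) against 81 (63.3%). In introns on the other strand lay 12 (10.8%) against 18 (14.1%). The order was the opposite for genes that are not protein-coding, which 19 (17.1%) against 39 (30.5%) overlapped. On the X chromosome lay 24 (21.6%) against 42 (32.8%), and 19 (17.1%) against 49 (38.3%) had another hairpin of the table within 10000 bases on the same strand. The median annotated length was 69 against 97 bases. These shares are descriptions, with no test.

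Mirtron geometry was also counted. Of 40 hairpins contained in a same-strand intron, 7 matched it from end to end: mir-1019 (dyf-5), mir-1020 (T16G12.1), mir-4816 (T09B4.2), mir-4920 (sph-1), mir-4924 (T11G6.5), mir-4926 (ari-1.3) and mir-4927 (M01F1.4). In the other set 1 of 25 did, mir-62 in ugt-50. The 40 include mir-8211 and the 25 include mir-261. Both also overlap an exon, so the count by position above did not place them in introns. Of the 7, mir-1020 and mir-4816 were tested; mir-4920 had 9 counts in all, mir-4926 had 5, mir-1019 had 1, and mir-4924 and mir-4927 had none. mir-62 was at 21.6 ± 4.26 CPM at 1 day (SD, n = 3) and 38.4 ± 0.966 at 20 days (n = 2).

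Blocks of numbers, which follow the order of cataloguing, differed in how much was seen. The 16 hairpins of the 1800s held 47.8% of the group's counts and 9 of them were tested, and the 15 of the 5500s held 23.3%, mostly mir-5592-1 and mir-5592-2, with 6 tested. The 4 of the 1000s held 11.5%, nearly all of it mir-1022. The 29 of the 8100s and 8200s held 4.42%, with 4 tested, and the 20 of the 4900s held 2.304%, with 2 tested. The 18 of the 2200s, of which 2 were tested, all had a count and held 3.07%. The 12 of the 4800s held 7.55%, of which mir-4813 was the main part (1218 of 1599 counts). The share of the 4800s was accordingly 0.0206% ± 0.00193 at 1 day and 0.00597% ± 0.000801 at 5 days (SD, n = 3 each), and that of the 1000s was 0.0125% ± 0.00119 at 1 day (n = 3) and 0.0243% ± 0.00372 at 20 days (n = 2).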

How the data were processed

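The authors deposited raw counts of reads per hairpin, not normalized. The submitters' processing notes name BWA 0.7.12-r1039 and Trimmomatic 0.36 beside SAMtools 1.3.1-9 and CASAVA 1.8.4. The sources used here do not give the reference, build, strand setting or counting rule. Libraries were grouped by labelled age, and replicate numbers only name libraries. With 2 or 3 libraries an age and depths of 955506 to 1800586 counts, 1 count is worth 0.555 to 1.05 CPM.

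In R 4.3.3, filterByExpr (minimum count 10, minimum total count 15) kept 145 of 250 hairpins. Hairpins were tested by quasi-likelihood in edgeR 4.0.16 (TMM, prior count 0.125, threshold 0.05) in 1 fit to all 11 libraries, with Benjamini-Hochberg adjustment over 145 hairpins. Each SE is the size of the unshrunk change over the root of F. As a check of the code, the steps were run on simulated counts. There every hairpin had the same spread beyond counting noise (12.5%), so hairpins that vary more were not covered. The alternatives took other scalings (RLE, upper-quartile, total counts), other filters, DESeq2 1.42.0, robust edgeR, limma-voom (limma 3.58.1) with the number after L in the descriptions as a random block or edgeR with it as a fixed term, copies summed, fits to 2 ages, and each library left out.

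Places (1-based) were looked up by name in Ensembl release 115 of WBcel235. Of the 115 members 111 had 1 place; mir-2217b-3 and mir-5593-1 had 2, and mir-2217b-4 and mir-5593-2 had none. Hairpin sequences were not used here. The members and lists were chosen with earlier results of these data known. Named hairpins were the 10 most abundant members, the 5 smallest p-values among the 4 ages and up to 8 called rises and 8 called falls per comparison, in every library, and the other tested members by their means.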

Additional observations from a re-analysis of the deposited data

How the results depend on the processing

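No paired analysis was possible because the labels give no replicate numbers that could pair libraries of different ages one to one. The L number, which some of them share, was fitted as a fixed term and as a random block instead. The fixed-term fit has nearly as many terms as libraries, so calls lost in it may reflect a loss of precision. From 5 to 10 days 3 late-catalogued hairpins passed (54 of all 145). RLE factors and DESeq2 gave 6 each (54 and 53 of all). Upper-quartile factors gave 5 (74), as did total counts (54), no filter (48 of 222) and the fit to the 2 ages (50 of 137). Fits without a library of 20 days leave 1 at that age and are not counted here. With 1 library of 1, 5 or 10 days left out, 2 to 4 passed (41 to 60 of 145 or 146). From 10 to 20 days 9 passed (65 of all 145), and 5 with the L number as a fixed term (61). With 1 library of 1, 5 or 10 days left out, 6 to 10 passed (59 to 80 of 145 or 146). The other counts stayed within 1.5 times. With 1 library of 1, 5 or 10 days left out, 16 to 18 differed among the 4 ages (110 to 118 of all 145 or 146). From 1 to 5 days 12 to 15 then passed (61 to 73 of all), and from 1 to 20 days 12 to 15 (87 to 98). No called change of a single hairpin reversed its sign. Upper-quartile factors shifted the median over all hairpins, in log2 units, by -0.18, 0.22, -0.18 and -0.11 in the 4 comparisons in the order given in the text; RLE factors moved the middle pair by -0.20 and 0.15, and total counts the second and last by -0.20 each.

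The summed share at 1, 5, 10 and 20 days was 0.152%, 0.116%, 0.127% and 0.130% with TMM-scaled totals, so 10 days then lay above 5 days. Without mir-1829b it was 0.127%, 0.091%, 0.0915% and 0.109%. With the 6 left-out hairpins added it was 0.132%, 0.134% and 0.193% at 5, 10 and 20 days, which put 20 days highest. With 1 library left out it was 0.161% to 0.176%, 0.118% to 0.122%, 0.113% to 0.117%, and 0.109% to 0.140%. The mean number detected at 1, 5, 10 and 20 days was 62.7, 58, 57.3 and 55.5. With at least 3 counts it was 36.3, 38, 36 and 37.5, so that it did not decline with age. With at least 10 it was 22, 24, 21 and 18. Without members of 100 counts or more, an alternative chosen after seeing the data, it was 38.7, 34, 33.3 and 32. Depth limits most members: 84 never reached 10 counts in a library.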
